A study of Rattus norvegicus with 69 samples.

Results

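The livers of 6 rats labelled Lean were compared with those of 7 sham-operated rats, all within what the labels call batch A. These 13 libraries, chosen by group and batch label alone, are part of 41 batch A libraries and of 69 in the whole series. All are RNA-seq libraries of Wistar rat liver, and the series is described as male. According to the study's methods, the sham rats were adults made obese with a high-fat diet over several weeks, were then sham-operated, had free choice of a high-fat and a low-fat diet, and were killed after an overnight fast. The labels give Lean as a group name only, and its diet, age, surgery and feeding before death are not given in the sources used here. Whatever of body weight, diet, surgery or age differed between Lean and sham rats therefore cannot be told apart. Another group, saline in batch A (n = 3), was used for side by side values. In the study's methods the saline rats had the same high-fat diet and free choice of diets but no sham operation. They received saline by osmotic minipump and injection. Prolonged feeding is given for 3 of them and for 6 rats on liraglutide with PYY, and the labels do not mark these rats. Batch A holds 3 saline libraries and 6 of that drug group, so its saline libraries may be the rats with prolonged feeding.

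The liver makes fatty acids from acetyl-CoA. ATP citrate lyase delivers the acetyl-CoA, acetyl-CoA carboxylase turns it into malonyl-CoA, fatty acid synthase joins the units, and elongases and stearoyl-CoA desaturases finish the chain, with NADPH coming from the pentose phosphate pathway and malic enzyme. The genes of this route are known to rise with carbohydrate feeding and insulin, largely through SREBP-1c, ChREBP and LXR. Cholesterol is made from the same acetyl-CoA through mevalonate and squalene, under the control of SREBP-2.

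All 15 listed genes of fatty acid synthesis and all 20 of cholesterol synthesis had a fold change above 1 in Lean against sham livers. So did 53% of all genes tested. Both lists were chosen with earlier results of these data known. Of the 35 listed genes Acacb alone passed the test. Of 15019 genes tested, 12 were called, that is, they differed at an adjusted p under 0.05 in edgeR's quasi-likelihood test (0.0799%). Of these, 10 were higher in Lean (0.0666%) and 2 were lower (0.0133%). A log2 fold change of 1 or more was reached by 8 of the 10 (0.0533%) and one of −1 or less by both of the lower genes. The higher genes included Acacb, Aacs and Plin3. Acacb is counted in the fatty acid synthesis list, but its malonyl-CoA inhibits fatty acid entry into mitochondria. Aacs and Plin3 belong to ketone body use for lipid synthesis and the lipid droplet coat. Another higher gene was LOC681458, named Scd3 in the RefSeq table of the newer build GRCr8, a stearoyl-CoA desaturase. The lower genes were Cyp7b1, an oxysterol hydroxylase of bile acid synthesis, and Adam22. The count was fragile. It dropped to 0 on removal of Lean replicate 1, 2 or 4, and likewise of sham replicate 1, 2, 5, 6 or 7. It was 1 without Lean replicate 3, 9 without Lean replicate 6, 21 and 42 without sham replicates 3 and 4, and 48 without Lean replicate 5. It was 89 (0.538%; 61 higher and 28 lower) when the spread was estimated from all 41 batch A libraries, of which 8 were among the 12, and 164 with DESeq2 (0.89% of the 18417 genes to which it gave an adjusted p), which included all 12. Each of the 12 kept its direction in every one of these fits. LOC681458, Adam22, Gatm and LOC103690153 were not called in the fit of the 41 libraries (adjusted p = 0.0741, 0.0721, 0.121 and 0.141, edgeR). At an unadjusted p under 0.05, 1532 genes differed (10.2%), 937 of them higher in Lean (6.24%) and 595 lower (3.96%), and in the fit of the 41 libraries 2133 did (12.9%).

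**Figure D1:**
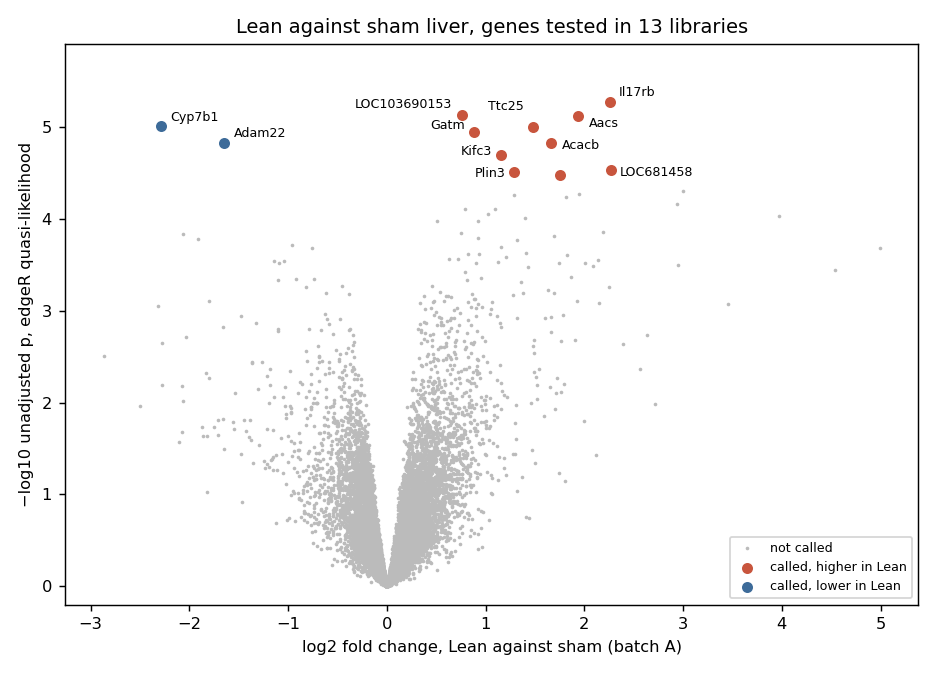
Each point is 1 of the 15019 genes tested in the 13 libraries, with the log2 fold change of Lean against sham on the x axis and −log10 of the unadjusted p of edgeR's quasi-likelihood test on the y axis. The 10 called genes higher in Lean are red and the 2 lower ones blue, and 11 of the 12 are named.

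Total counts were 18037046 to 25062189 in the Lean libraries and 19846183 to 25424858 in the sham libraries. The 10 hepatocyte markers, Alb and Ttr among them, were all detected, with summed levels of 153000 to 203000 CPM in Lean (CPM, a gene's count scaled to library size) and 143000 to 204000 CPM in sham. Lean replicate 1 stood apart from the other 12 libraries. It lay at −73.3 on the first principal component (28.2% of the variance), where the others lay between −29.5 and 29.8, and its ribosomal RNA level was 6110 CPM against 1690 to 3300 CPM. Its blood markers summed to 362 CPM, and those of sham replicate 4 to 657 CPM, against 55.4 to 228 CPM in the others. As these are bulk samples, fewer cells of a type and less RNA per cell cannot be told apart.

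The promoters are shown for 5 genes with which the findings are concerned. They are the called genes Acacb, LOC681458 (Scd3) and Plin3, Pnpla3, whose fold change was large, and Fdps of the cholesterol route. The sequences are the 200 bases before the start of each gene on the gene's strand, 5′ to 3′, from RefSeq (build GRCr8). Capitals mark CCAAT or its reverse complement ATTGG, the box that the factor NF-Y is known to bind.
Acacb, chr12:48138215-48138414, minus strand: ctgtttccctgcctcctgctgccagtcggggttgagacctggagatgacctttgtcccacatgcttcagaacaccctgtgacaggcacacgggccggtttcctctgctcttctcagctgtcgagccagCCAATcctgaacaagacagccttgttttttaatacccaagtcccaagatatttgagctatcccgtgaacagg
Scd3, chr1:253027853-253028052, plus strand: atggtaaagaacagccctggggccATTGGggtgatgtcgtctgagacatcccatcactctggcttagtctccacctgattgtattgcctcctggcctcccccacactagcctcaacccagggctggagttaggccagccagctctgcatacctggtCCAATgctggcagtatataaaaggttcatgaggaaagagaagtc
Plin3, chr9:1210213-1210412, minus strand: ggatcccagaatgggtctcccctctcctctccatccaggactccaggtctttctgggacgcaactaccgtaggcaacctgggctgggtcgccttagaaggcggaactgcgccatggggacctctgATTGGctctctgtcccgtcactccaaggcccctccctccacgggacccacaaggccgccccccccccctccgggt
Pnpla3, chr7:117173328-117173527, plus strand: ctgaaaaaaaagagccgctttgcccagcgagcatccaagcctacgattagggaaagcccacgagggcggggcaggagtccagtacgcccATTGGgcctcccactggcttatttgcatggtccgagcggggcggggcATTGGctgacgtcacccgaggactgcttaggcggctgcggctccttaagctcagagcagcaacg
Fdps, chr2:176804817-176805016, minus strand: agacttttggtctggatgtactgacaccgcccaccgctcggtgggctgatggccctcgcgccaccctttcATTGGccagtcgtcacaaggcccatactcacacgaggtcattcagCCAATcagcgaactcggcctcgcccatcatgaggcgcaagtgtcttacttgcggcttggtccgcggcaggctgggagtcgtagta

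Searched on both strands in this window, CCAAT was present in 29.2% of all 33469 rat promoters. Of the 12 called genes, 7 had a promoter in the table and 4 of these held CCAAT, namely Gatm, Acacb, LOC681458 and Plin3. In the list of fatty acid synthesis genes described below, 12 of 15 had a promoter and 8 held CCAAT. In the list of cholesterol synthesis genes, 15 of 20 had one and 12 held CCAAT. The sterol regulatory element TCACNCCAC was in none of these windows and in 0.78% of all promoters. The E-box CACGTG, in 4.68% of all promoters, was in 1, that of Sc5d. These are matches of letters in a window and say nothing about binding.

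Acacb (chr12:48127149-48238969 on Rnor_6.0, the build of the counts) encodes acetyl-CoA carboxylase 2, which makes the malonyl-CoA that inhibits fatty acid entry into mitochondria. Its levels were 242, 156, 138, 136, 83.6 and 81.9 CPM in Lean replicates 1 to 6 and 48.8, 29.3, 54.2, 63.4, 28.5, 51.2 and 32.9 CPM in sham replicates 1 to 7. Every Lean library lay above every sham library, and the log2 fold change was 1.66 ± 0.263 (SE; adjusted p = 0.0283, edgeR).

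Aacs (chr12:36512393-36555694) encodes acetoacetyl-CoA synthetase, which turns the ketone body acetoacetate into a precursor for lipid synthesis in the cytosol. Its levels in Lean were 2.68, 6.29, 3.46, 2.72, 2.03 and 2.22 CPM, and in sham 0.95, 0.659, 1.26, 0.65, 1.17, 0.652 and 0.585 CPM. The groups did not overlap, and the log2 fold change was 1.93 ± 0.289 (SE; adjusted p = 0.0283, edgeR). The sham levels were low, so that few reads stand behind each of them.

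Plin3 (chr9:10769739-10781659), a perilipin that coats nascent lipid droplets, was measured at 31.2, 28.7, 27.8, 22.1, 16.6 and 15.3 CPM in Lean and at 8.08, 6.43, 13.2, 14.9, 9.05, 8.13 and 7.84 CPM in sham. Lean replicate 6 lay just above sham replicate 4, so the groups did not overlap. The log2 fold change was 1.29 ± 0.219 (SE; adjusted p = 0.0419, edgeR).

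LOC681458 (chr1:263968156-264003991) was at 8.58, 12.1, 4.5, 8.21, 4.33 and 3.64 CPM in Lean and at 0.428, 0.891, 2.88, 1.35, 1.07, 2.15 and 1.17 CPM in sham. The groups did not overlap, with a log2 fold change of 2.27 ± 0.382 (SE; adjusted p = 0.0419 in the 13 libraries and 0.0741 in the 41, edgeR). This value is uncertain, because the authors divided reads that match several places and LOC681458 lies in a cluster with Scd, Scd2 and Scd4, which are similar in sequence.

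Il17rb (chr16:6064287-6077978), a subunit of the receptor for the cytokine interleukin-25, had the lowest p of all genes. It stood at 29.1, 31.9, 63.2, 21.2, 17.6 and 15.7 CPM in Lean and at 4.18, 6.2, 10.8, 7.31, 5.93, 5.25 and 3.74 CPM in sham. The groups did not overlap, and the log2 fold change was 2.26 ± 0.326 (SE; adjusted p = 0.0283, edgeR).

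A group of 4 other called genes higher in Lean serves other functions. Ttc25, a docking protein of ciliary dynein arms, ranged from 4.2 to 9.11 CPM (median 7.5) in Lean and from 1.74 to 3.79 CPM (median 2.26) in sham (log2 fold change 1.48 ± 0.226, SE; adjusted p = 0.0283, edgeR). Kifc3, a minus-end-directed kinesin, ranged from 9.11 to 24.6 CPM (median 15.9) against 5.93 to 9.05 CPM (median 8.06), with a log2 fold change of 1.16. Gatm, which makes the creatine precursor guanidinoacetate, ranged from 6.85 to 10.6 CPM (median 8.79) against 3.68 to 6.22 CPM (median 4.72), with a log2 fold change of 0.88. The non-coding LOC103690153 ranged from 11.8 to 15.8 CPM (median 14.1) against 6.94 to 10.7 CPM (median 8.25), with a log2 fold change of 0.76. Of these genes, Gatm and LOC103690153 were not called in the 41 libraries (adjusted p = 0.121 and 0.141, edgeR). In all 4 genes of this group, every Lean library lay above every sham library. Over all genes tested, 45 had this separation (0.3%) and 17 the opposite one (0.113%).

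**Figure D2:**
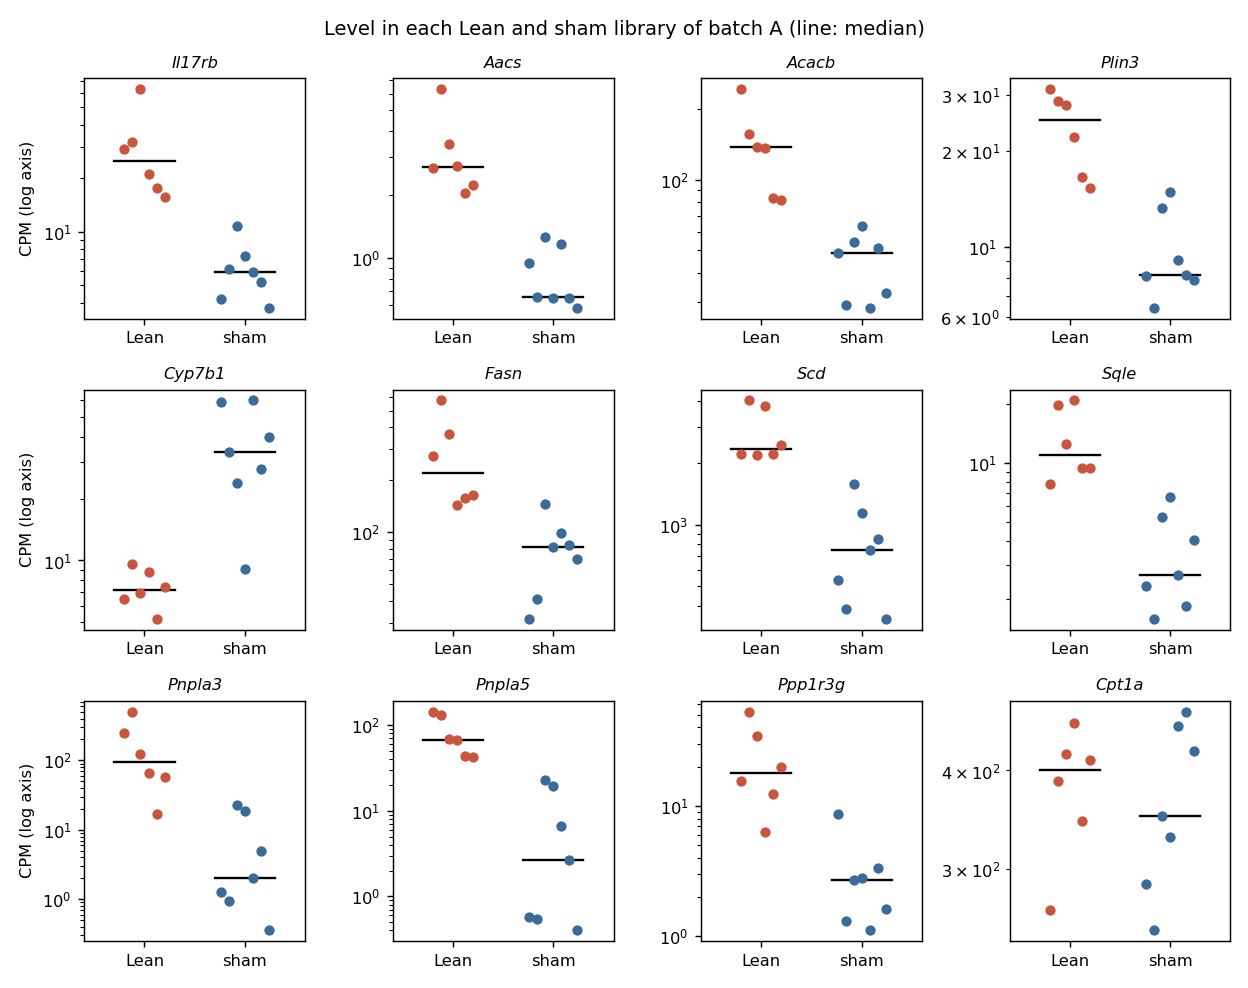
Level in CPM on a log axis of 12 genes in each of the 6 Lean (red) and 7 sham (blue) libraries, with the median of each group as a line. Il17rb, Aacs, Acacb, Plin3, Scd, Sqle and Pnpla5 show no overlap between groups, and in Cpt1a every Lean library lies within the sham range.

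The 15 genes of fatty acid synthesis all had a log2 fold change above 0, as had 53% of all genes. Their median was 1.13, against 0.0163 over all genes. Of the 15, only Acacb was called. At an unadjusted p under 0.05, 13 were higher in Lean, where 6.24% of all genes were. The 13 include Scd, Scd2 and Scd4, which are similar in sequence. Reads matching several places were divided, so these members may not be separate. The sum of their levels was 4420 to 8890 CPM in Lean (median 5620) and 1710 to 3930 CPM in sham (median 2520). The highest sham sum was below the lowest Lean sum. With the spread taken from all 41 batch A libraries, 6 of the 15 were called higher, where 0.369% of all genes were. With DESeq2 it was 11 of the 15, where 0.63% of all genes were called higher.

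Along the route, Acly, the ATP citrate lyase, was at 127 to 729 CPM in Lean (median 202) and at 49.9 to 144 CPM in sham (median 85.7), with a log2 fold change of 1.69 ± 0.391 (SE; adjusted p = 0.136, edgeR). Lean replicate 2 was the highest library by far. Acaca, the cytosolic acetyl-CoA carboxylase, ranged from 17 to 37.8 CPM in Lean (median 30.5) and from 8.76 to 19.2 CPM in sham (median 12.4; log2 fold change 1.09, adjusted p = 0.0623, edgeR). Fasn, the fatty acid synthase, ranged from 142 to 571 CPM in Lean (median 219) and from 31.6 to 144 CPM in sham (median 81.4; log2 fold change 1.83, adjusted p = 0.0921, edgeR). The overlap in Fasn was between Lean replicate 4 and sham replicate 3. None of these 3 genes passed the test in the 13 libraries. Of them, Acly (adjusted p = 0.0347) and Acaca (adjusted p = 0.0357) passed it in edgeR's fit of the 41 libraries.

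For the elongase Elovl6, levels were low, 1.24 to 4.82 CPM in Lean (median 1.91) and 0.0775 to 1.07 CPM in sham (median 0.614). The groups did not overlap (log2 fold change 2.14; adjusted p = 0.0921, edgeR). Scd, the main stearoyl-CoA desaturase of liver, stood at 2220, 4030, 2180, 3800, 2200 and 2450 CPM in Lean and at 539, 388, 1580, 1140, 750, 848 and 347 CPM in sham. Here too the groups did not overlap, and the log2 fold change of 1.82 ± 0.326 (SE) narrowly missed the threshold in the 13 libraries (adjusted p = 0.0548, edgeR). In the 41 libraries Scd was farther from it (adjusted p = 0.224, edgeR). Acss2, which makes acetyl-CoA from acetate, ranged from 39.6 to 74.9 CPM in Lean and from 17.1 to 33.8 CPM in sham, again with no overlap (log2 fold change 0.93; adjusted p = 0.0673, edgeR). Pklr, the liver pyruvate kinase, had a log2 fold change of 1.13 and the malic enzyme gene Me1 one of 1.32, neither of which passed (adjusted p = 0.0921 and 0.157, edgeR). The adjusted p in the 41 libraries was 0.0206 for Elovl6, 0.0097 for Acss2, 0.0713 for Pklr and 0.0388 for Me1 (edgeR).

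The regulators of this route differed less. Srebf1, which encodes SREBP-1, was at 166 to 464 CPM in Lean (median 315) and at 146 to 291 CPM in sham (median 242), a log2 fold change of 0.38 (adjusted p = 0.537, edgeR). Mlxipl, which encodes ChREBP, differed by 0.44 on the log2 scale (adjusted p = 0.65, edgeR) and ranges of 81 to 340 CPM and 82.7 to 294 CPM. Srebf1 and Mlxipl were the 2 genes of the list with an unadjusted p above 0.05. The test does not show that their levels were equal, and levels of their RNA do not report on the activity of the proteins.

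In the pentose phosphate pathway, Pgd, 6-phosphogluconate dehydrogenase, ranged from 52.3 to 116 CPM in Lean (median 67.7) and from 30.1 to 57.2 CPM in sham (median 37.2), with a log2 fold change of 0.90 (adjusted p = 0.0921, edgeR). Tkt, the transketolase, had a log2 fold change of 0.54 and Taldo1, the transaldolase, one of 0.24 (adjusted p = 0.136 and 0.475, edgeR). In the fit of the 41 libraries Pgd was called. These 3 genes were named after their values were seen, and no count over the whole pathway is given.

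**Figure D3:**
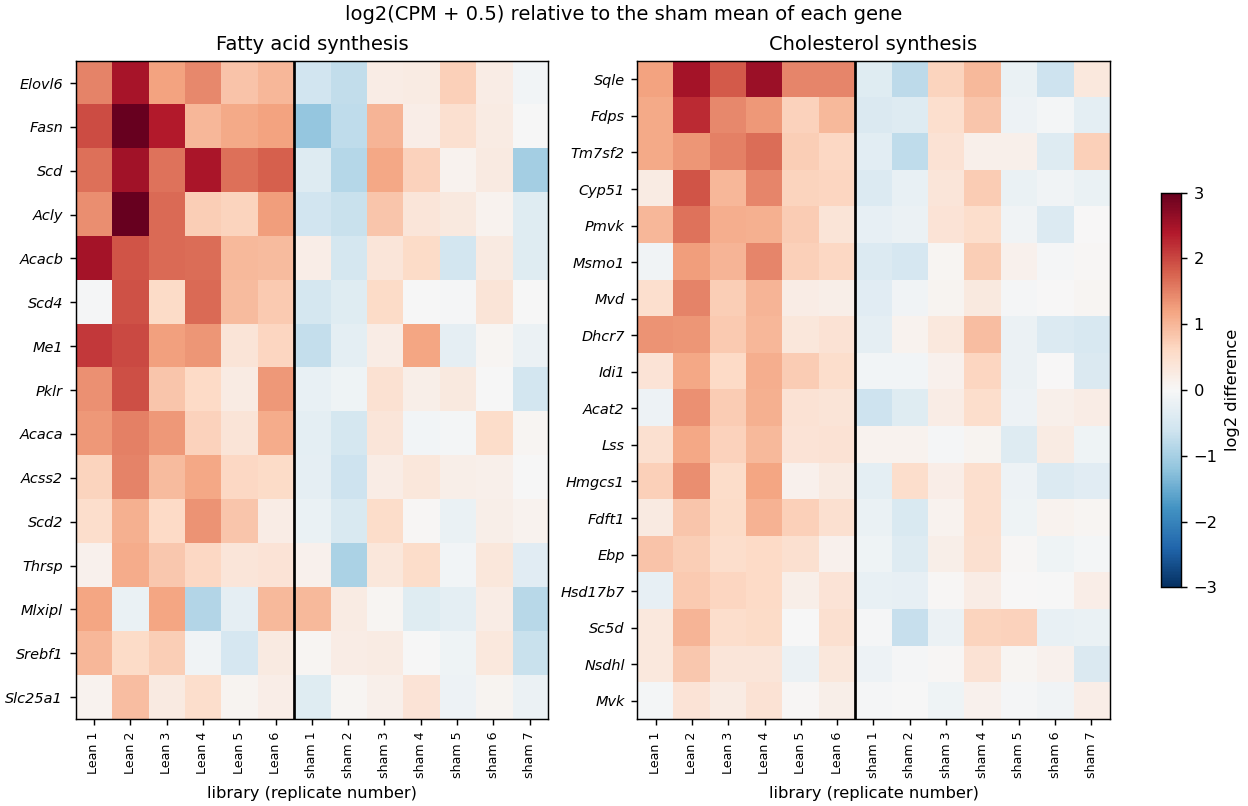
Colour gives log2(CPM + 0.5) of each gene in each library minus the mean of the 7 sham libraries, for the 15 fatty acid synthesis genes (left) and 18 of the 20 cholesterol synthesis genes (right), with genes ordered by fold change and a line between Lean and sham. Lean columns are mostly red, Lean replicate 2 the most in both lists, and sham replicates 3 and 4 are the reddest sham columns.

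By the median of the fatty acid synthesis genes, relative to the sham mean on the log2 scale, the Lean libraries lay at 1.32, 1.88, 1.18, 1.01, 0.628 and 0.967 in the order of their numbers. The sham libraries lay at −0.304, −0.55, 0.363, 0.347, −0.0515, 0.242 and −0.186. The lowest Lean library, replicate 5, lay above the highest sham library, replicate 3. The cholesterol synthesis genes were less separated. The Lean libraries lay at 0.378, 1.24, 0.699, 1.07, 0.486 and 0.44, and the sham libraries between −0.274 and 0.505, so that Lean replicates 1, 5 and 6 lay below sham replicate 4.

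The widest fold changes of lipid genes were those of 2 patatin-like lipid droplet proteins that lie side by side on chromosome 7. Pnpla3, known from the human variant linked to fatty liver, stood at 246, 504, 122, 66.3, 16.9 and 57.9 CPM in Lean and at 1.28, 0.93, 22.9, 18.7, 2.05, 4.87 and 0.36 CPM in sham. Lean replicate 5 overlapped with sham replicates 3 and 4. The log2 fold change was 4.54 ± 0.981 (SE), and the adjusted p was 0.102 in edgeR's fit of the 13 libraries and 0.0097 in its fit of the 41.

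Pnpla5 stood at 144, 131, 68.1, 66.5, 43.6 and 42.8 CPM in Lean and at 0.57, 0.542, 22.8, 19.6, 6.72, 2.65 and 0.405 CPM in sham. The groups did not overlap. The log2 fold change was 3.45 ± 0.822 (SE; adjusted p = 0.14 in the 13 libraries and 0.0318 in the 41, edgeR). In both genes sham replicates 3 and 4 were the highest sham libraries, as they were in Scd.

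Other lipid droplet genes were close to 0. Over the 17 of 20 that were tested, 8 had a log2 fold change above 0, the median was −0.0113, and Plin3 was the 1 called. Plin2, the perilipin most tied to liver fat content, was at 47.9 to 127 CPM in Lean (median 61.6) and at 39.8 to 91.6 CPM in sham (median 50.8; log2 fold change 0.29, adjusted p = 0.685, edgeR). Cidec, which enlarges droplets, had a log2 fold change of −0.06, and Pnpla2, the adipose triglyceride lipase, one of 0.28. Among 11 tested genes of triglyceride synthesis the median was 0.141 and 0 were called. In that list 1 gene, Dgat2, the last enzyme of the route, was lower in Lean at an unadjusted p under 0.05 (log2 fold change −0.25; adjusted p = 0.431, edgeR).

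The 7 tested enzymes that elongate and desaturate polyunsaturated fatty acids had a median of 0.468 and 0 calls. Of these, 4 were higher at an unadjusted p under 0.05, where 6.24% of all genes were. The desaturase Fads2 was at 370 to 1120 CPM in Lean (median 492) and at 239 to 498 CPM in sham (median 281; log2 fold change 0.91, adjusted p = 0.263, edgeR). Among 16 genes of fatty acid uptake and binding the median was 0.312. In this list Fabp5, a fatty acid binding protein, was at 22.5 to 82.6 CPM in Lean (median 34.6) and at 4.26 to 20.1 CPM in sham (median 10.3), without overlap (log2 fold change 1.75 ± 0.372, SE; adjusted p = 0.0921, edgeR). Cd36, the fatty acid translocase, was at 2.06 to 16 CPM in Lean (median 7.01) and at 8.12 to 25 CPM in sham (median 19.5; log2 fold change −0.90, adjusted p = 0.464, edgeR).

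All 20 genes of cholesterol synthesis had a log2 fold change above 0, as had 53% of all genes, with a median of 0.765. None was called by edgeR in the 13 libraries, while 17 were higher at an unadjusted p under 0.05, where 6.24% of all genes were. In the 41 libraries 3 were called (0.369% of all genes), and with DESeq2, 9 (0.63%). Sqle, the squalene epoxidase that starts the sterol part of the route, stood at 7.84, 19.9, 12.5, 20.9, 9.48 and 9.43 CPM in Lean and at 2.33, 1.59, 5.27, 6.66, 2.66, 1.84 and 4.05 CPM in sham. Every Lean library lay above every sham library (log2 fold change 1.95 ± 0.347, SE; adjusted p = 0.0548 in the 13 libraries and 0.128 in the 41, edgeR).

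Earlier in the route, Pmvk, phosphomevalonate kinase, ranged from 23.3 to 55 CPM in Lean (median 36.7) and from 13.1 to 25.5 CPM in sham (median 16.3; log2 fold change 1.02, adjusted p = 0.0664, edgeR). Fdps, farnesyl diphosphate synthase, ranged from 128 to 377 CPM (median 185) and from 58.2 to 142 CPM (median 70.6; log2 fold change 1.32, adjusted p = 0.0824, edgeR). Lss, which closes the sterol rings, did not overlap, at 9.39 to 16 CPM against 5.18 to 8.32 CPM (log2 fold change 0.75, adjusted p = 0.0816, edgeR). The adjusted p in the 41 libraries was 0.00511 for Pmvk, 0.0775 for Fdps and 0.212 for Lss (edgeR).

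In the control of sterols, 0 of 21 genes were called and the median was 0.137. Of the 21, 7 were higher and 2 lower at an unadjusted p under 0.05, where 6.24% and 3.96% of all genes were. In the 41 libraries 1 was called higher, where 0.369% of all genes were. Insig1, which holds SREBPs in the endoplasmic reticulum, was at 55.1 to 415 CPM in Lean (median 101) and at 23.3 to 73.9 CPM in sham (median 59.5; log2 fold change 1.54, adjusted p = 0.255, edgeR). Srebf2, which encodes SREBP-2, showed a small difference without overlap, at 31.1 to 41 CPM against 23 to 30.2 CPM (log2 fold change 0.37, adjusted p = 0.136, edgeR). Abcg5, a subunit of the transporter that exports cholesterol into bile, went the other way, at 6.63 to 16.9 CPM (median 11.4) against 13.2 to 34.2 CPM (median 24.8; log2 fold change −1.10, adjusted p = 0.115, edgeR). Its partner Abcg8 differed by −0.77 on the log2 scale (adjusted p = 0.264, edgeR).

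**Figure D4:**
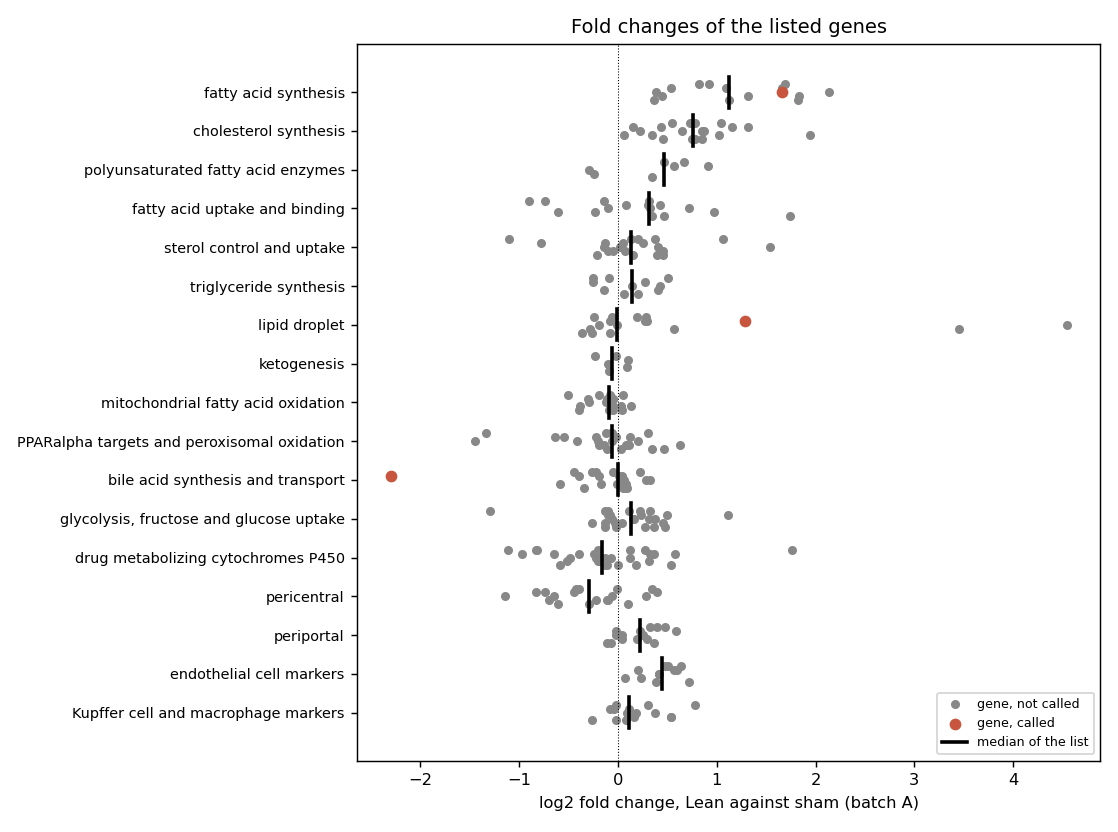
Log2 fold changes of Lean against sham in the 13 libraries for the tested genes of 17 lists, 1 point per gene, with called genes in red and the median of each list as a bar. The medians of fatty acid synthesis (1.13) and cholesterol synthesis (0.765) lie farthest to the right, and fatty acid oxidation and ketogenesis lie near 0.

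Genes that burn fatty acids had medians near 0. Of 20 genes of mitochondrial fatty acid oxidation, 16 had a log2 fold change below 0, while 53% of all genes had one above it. The median was −0.0868, with 0 calls. At an unadjusted p under 0.05, 2 were lower (Hadhb and Decr1) and 0 higher, where 3.96% and 6.24% of all genes were. The 6 ketogenesis genes had a median of −0.0534. Cpt1a, the gate of fatty acids into mitochondria, was at 266 to 459 CPM in Lean (median 400) and at 251 to 475 CPM in sham (median 350; log2 fold change 0.06). Among 24 PPARalpha targets and peroxisomal genes 0 were called, and 4 were lower at an unadjusted p under 0.05, where 3.96% of all genes were. One of these was Cyp4a2, a fatty acid omega-hydroxylase, at 35.7 to 79.3 CPM in Lean (median 50.3) and at 43.6 to 238 CPM in sham (median 129; log2 fold change −1.33, adjusted p = 0.162, edgeR). Its relative Cyp4a1 had a log2 fold change of 0.03.

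Cyp7b1 (chr2:102701903-102871257), which 7-hydroxylates oxysterols in the alternative route of bile acid synthesis, was the called gene with the largest deficit in Lean. It stood at 6.47, 9.65, 6.92, 8.74, 5.2 and 7.41 CPM in Lean and at 59.3, 33.7, 23.7, 9.09, 60, 27.9 and 39.9 CPM in sham. The Lean libraries were tightly grouped, and sham replicate 4 lay within their range. The log2 fold change was −2.29 ± 0.348 (SE; adjusted p = 0.0283, edgeR). Cyp7a1, the rate-limiting enzyme of the classical route, was at 45.9 to 136 CPM (median 71.4) and at 54.2 to 235 CPM (median 90.9; log2 fold change −0.44, adjusted p = 0.636, edgeR). Of the 22 tested genes of bile acid synthesis and transport, 11 lay on either side of 0 and Cyp7b1 was the only one called.

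Adam22 (chr4:22864485-23002969), a catalytically inactive member of the ADAM family, was the other lower gene. Its levels were 0.158, 0.301, 0.445, 0.477, 0.691 and 0.396 CPM in Lean and 0.95, 1.39, 1.04, 1.46, 1.35, 1.3 and 1.62 CPM in sham. The groups did not overlap (log2 fold change −1.64 ± 0.261, SE; adjusted p = 0.0283 in the 13 libraries and 0.0721 in the 41, edgeR). However, the gene was barely detected, so that few reads stand behind each value.

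Among genes of sugar and glycogen metabolism, the glycogen-targeting phosphatase subunit Ppp1r3g had the widest fold change. It stood at 15.6, 52.8, 34.3, 6.35, 12.3 and 19.9 CPM in Lean and at 8.74, 1.32, 2.7, 2.81, 1.12, 3.34 and 1.62 CPM in sham. Lean replicate 4 lay below sham replicate 1, and the log2 fold change was 2.93 ± 0.532 (SE; adjusted p = 0.0612 in the 13 libraries and 0.0036 in the 41, edgeR). The fructose transporter Slc2a5 was at 19.4 to 37.3 CPM (median 29) and at 2.63 to 23.6 CPM (median 13.1; log2 fold change 1.12, adjusted p = 0.279, edgeR). In gluconeogenesis, Pck1 had a log2 fold change of 0.30 and G6pc one of 0.79, with adjusted p of 0.519 and 0.574 (edgeR). No gene was called among 26 of glycolysis, fructose and glucose uptake, 13 of glycogen and 17 of insulin signalling and gluconeogenesis.

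Of 34 drug metabolizing P450 genes, 23 had a log2 fold change below 0 (median −0.16), and 0 were called in the 13 libraries. Cyp2e1, the ethanol-inducible form of pericentral hepatocytes, was at 2020 to 4070 CPM in Lean (median 2400) and at 3760 to 6720 CPM in sham (median 4520; log2 fold change −0.82 ± 0.188, SE). Its adjusted p was 0.126 in the 13 libraries and 0.0283 in the 41 (edgeR). Cyp3a2, a male-biased steroid hydroxylase, was at 758 to 2410 CPM (median 936) and at 1520 to 3850 CPM (median 2760; log2 fold change −1.11), with adjusted p of 0.17 and 0.0354 (edgeR). Of 19 pericentral genes, 15 lay below 0 (median −0.288), and of 15 periportal genes, 11 lay above it (median 0.223), with 0 called in either list.

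Enzymes of the urea cycle and amino acid breakdown had a median near 0. Asl, argininosuccinate lyase, was at 385 to 491 CPM in Lean and at 250 to 352 CPM in sham, without overlap (log2 fold change 0.50 ± 0.0966, SE; adjusted p = 0.0673, edgeR). Bhmt, which remethylates homocysteine, was at 1570 to 2690 CPM (median 2160) and at 717 to 1580 CPM (median 1250; log2 fold change 0.92, adjusted p = 0.0824, edgeR). The adjusted p in the 41 libraries was 0.212 for Asl and 0.172 for Bhmt (edgeR). At an unadjusted p under 0.05, 7 of 40 were higher and 1 lower, where 6.24% and 3.96% of all genes were. None of the 40 was called, and the median was 0.0292.

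Markers of other liver cells were read for each group. The 12 endothelial markers all had a log2 fold change above 0 (median 0.448), where 53% of all genes had, and 0 were called. At an unadjusted p under 0.05, 6 of the 12 were higher, where 6.24% of all genes were. Their summed levels were 274 to 385 CPM in Lean (median 367) and 183 to 401 CPM in sham (median 241). Stab1, a scavenger receptor of sinusoidal endothelium, differed by 0.72 on the log2 scale (adjusted p = 0.258, edgeR). Of 12 tested stellate cell markers 11 lay above 0 (median 0.325), with sums of 281 to 499 CPM in Lean and 209 to 449 CPM in sham. Kupffer cell and macrophage markers had a median of 0.115 over 15 genes, with sums of 367 to 682 CPM and 290 to 685 CPM. Of 7 tested bile duct cell markers 5 lay above 0 (median 0.366), 4 were higher and 1 lower at an unadjusted p under 0.05 and 0 were called, with sums of 452 to 577 CPM in Lean and 301 to 488 CPM in sham. Most of these sums came from the keratins Krt8 and Krt18, which hepatocytes also express. Among these markers Epcam was at 11.1 to 19.4 CPM in Lean and at 6.12 to 10.3 CPM in sham, without overlap (log2 fold change 0.79, adjusted p = 0.0623, edgeR), and the duct keratin Krt19 was the 1 lower marker (log2 fold change −1.15, adjusted p = 0.463, edgeR). The 5 tested blood markers all lay below 0 (median −0.423), with 0 called. Their sums did not go the same way by the median, at 64.6 to 362 CPM in Lean (median 104) and 55.4 to 657 CPM in sham (median 84.4). The highest sum was that of sham replicate 4. The 4 adipocyte markers with enough counts to be tested all lay above 0 (median 0.46), 1 of them at an unadjusted p under 0.05, with sums of 17 to 36.5 CPM in Lean and 12 to 26 CPM in sham, while Lep and Retn had 0 counts in all 13 libraries. Of 8 pancreas markers only Cela1, an elastase, was tested, at 13 to 24.3 CPM in Lean and 7.66 to 14 CPM in sham (log2 fold change 0.82, adjusted p = 0.0921, edgeR), and Gcg, Ins1, Pnlip and Prss1 had 0 counts in all 13 libraries. The part of other cell types in the differences of single genes was not tested.

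Saline rats of batch A, possibly all with prolonged feeding, offered a second set of controls. In edgeR's fit of the 41 libraries, Lean differed from saline in 105 of 16552 genes (0.634%; 66 higher and 39 lower) and sham from saline in 3 (0.0181%; 0 higher and 3 lower). At an unadjusted p under 0.05, Lean differed from saline in 1410 genes (8.52%) and sham from saline in 562 (3.4%). The count against saline rested on single saline libraries, and it was 63, 53 and 20 without saline replicates 2, 3 and 4. The count for sham against saline was 0 without saline replicate 4. Since both comparisons with Lean share the Lean libraries, their values are given side by side only.

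Of the 12 genes called against sham, 10 were called against saline, where 0.634% of all genes were, and all 12 had the same direction. Between sham and saline 0 of the 12 were called, where 0.0181% of all genes were. The 12 were chosen by the same Lean libraries, so this overlap is partly built in and gives no separate support. Acacb differed by 2.69 on the log2 scale (adjusted p = 0.000461, edgeR) in Lean against saline and by 1.05 (adjusted p = 1) in sham against saline. Cyp7b1 was at 53.5, 70.4 and 177 CPM in the lowest, middle and highest saline library, and its log2 fold changes were −3.71 (adjusted p = 0.000236, edgeR) and −1.40 (adjusted p = 1). Plin3, at 4.17, 5.01 and 8.88 CPM in saline, had values of 2.02 (adjusted p = 0.000236, edgeR) and 0.75 (adjusted p = 1). Gatm was the exception among named genes, with 0.49 (adjusted p = 0.759, edgeR) in Lean against saline, as was the non-coding LOC103690153 with 0.81 (adjusted p = 0.335, edgeR).

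**Figure D5:**
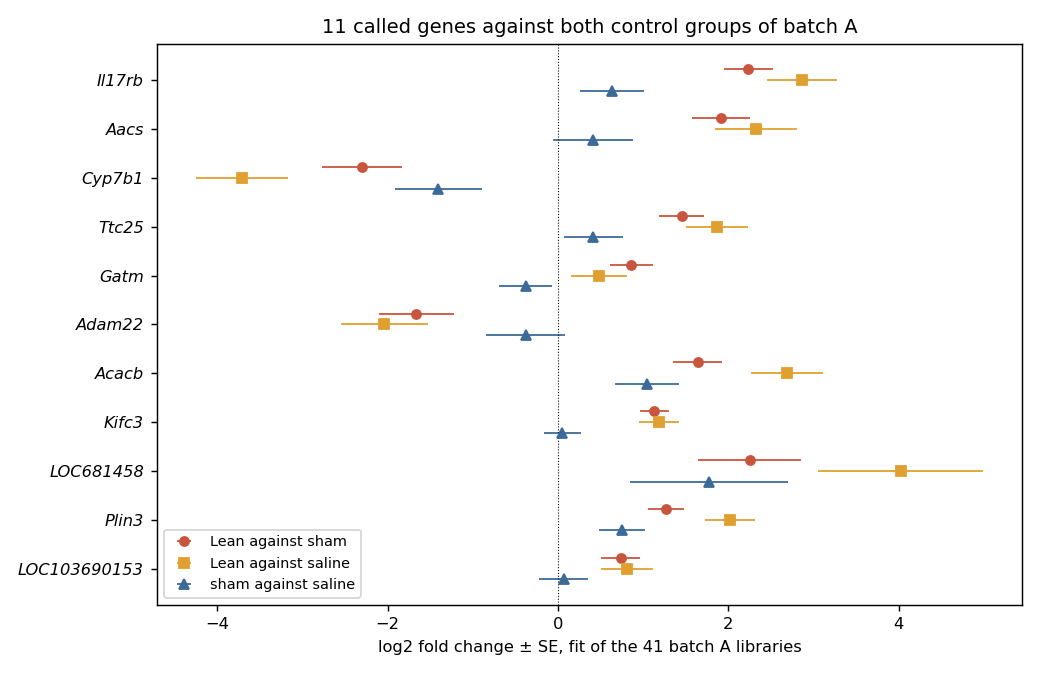
Log2 fold change and SE, from the fit of the 41 batch A libraries, of 11 of the 12 called genes in Lean against sham (red circles), Lean against saline (yellow squares) and sham against saline (blue triangles). The squares lie on the same side of 0 as the circles for all 11, and the triangles lie closer to 0 than the squares for all 11.

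In this fit fatty acid synthesis had a median log2 fold change of 1.51 in Lean against saline. It was 1.11 in Lean against sham and 0.537 in sham against saline. Cholesterol synthesis had medians of 0.707, 0.752 and 0.0445 in the same order, and all genes of 0.00474, 0.00162 and 0.00498. In Lean against saline, 7 of 15 fatty acid and 2 of 20 cholesterol synthesis genes were called higher, where 0.399% of all genes were. Pnpla5 was at 0, 0.101 and 0.304 CPM in the 3 saline libraries and Pnpla3 at 0.261, 0.399 and 0.756 CPM, all below the lowest Lean library in this fit. Against saline, Pnpla3 differed by 8.54 on the log2 scale (adjusted p = 0.00607, edgeR), while sham against saline gave 4.02 (adjusted p = 1). Sqle differed from this pattern. It was at 4.54, 4.56 and 13.3 CPM in saline, and its log2 fold change was 0.89 (adjusted p = 0.819, edgeR) in Lean against saline and −1.05 (adjusted p = 1) in sham against saline.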

How the data were processed

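Liver RNA was selected for poly(A), made into stranded libraries and sequenced as single reads. Per the labels and the study's methods, the authors used bcl2fastq 2.20.0.422, cutadapt 2.5, STAR 2.7.2b with the rat genome Rnor_6.0 and its RefSeq annotation, and featureCounts 1.6.4 on the reverse strand. The deposited values are raw counts per gene, in which the authors counted reads matching several places or genes as fractions, so that 16.6% of the values in the 13 libraries were not whole. Like expected counts, these deposited values were rounded before the tests.

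Members and gene lists were chosen with earlier results of these data known. The 6 Lean and 7 sham libraries were fitted in R 4.3.3 with edgeR 4.0.16 (filterByExpr, TMM, robust quasi-likelihood test). This left 15019 of 38513 genes, with p-values adjusted by Benjamini and Hochberg over all of them. CPM are TMM-scaled. A second fit held all 41 batch A libraries, in which CPM differ slightly. The script was tested on simulated data. No set test was run; lists are described by counts and medians. Genes were named by a rule: the 15 highest and 15 lowest fold changes among called genes past a log2 value of 1 in size and with a mean log2 CPM of at least 1; the 8 smallest p on either side; from every list up to 6 genes by smallest p, plus counter-examples and the missing steps of a route; and cell type markers. Igfn1, Irs3 and the pentose phosphate genes lie outside it. Not every gene under the rule is described. Of the lower genes with the smallest p, LOC108348404, Slc29a4, Zfp189, Sat2 and Slc13a3 are left out. A few genes are not reported here singly, though counts and medians include them. Alternatives were DESeq2 1.42.0, limma-voom (limma 3.58.1), other size factors, no filter, unrounded counts, no robust estimation, wider fits, a replicate block and leaving out each library. Leaving out libraries from the 41-library fit, and each saline library, was added after seeing the data. No 2 libraries of a group agreed within sampling noise. The study's sample numbers per group match the sham and saline libraries, as separate animals would give. For Lean no source used here says whether replicates are separate animals, so p-values measure the spread between these samples.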

Additional observations from a re-analysis of the deposited data

Results flagged for a closer look

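A set of 99 genes, most of them named in the text, was checked within the 6 Lean and within the 7 sham libraries for values far from their group. Total counts, the first principal component and ribosomal RNA were checked too. Igfn1, Irs3 and the marker sums were not. Of 204 groups 7 were marked, where chance marks about 1 in 20. Lean replicate 1 was marked for ribosomal RNA, at 6110 CPM against 2590 CPM in the nearest Lean library. It was also marked for Hadhb, a subunit of the trifunctional protein of fatty acid oxidation, at 66.6 CPM against 111 CPM, and for the endothelial receptor Stab2 at 13.8 CPM against 19.1 CPM. Other Lean marks were the macrophage receptor Mrc1 in replicate 6, at 27.4 CPM against 40.6 CPM, and the clock gene Per1 in replicate 4, at 14.2 CPM against 42.5 CPM. Among sham libraries, Decr1, an enzyme of unsaturated fatty acid oxidation, was at 423 CPM in replicate 4 against 270 CPM in the next, and replicate 1 lay at −20.2 on the first principal component against 8.95 for the next. Among the genes checked, no called gene and no gene of fatty acid or cholesterol synthesis was marked.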

How the results depend on the processing

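The number of genes differing between Lean and sham was 12. It was 164 with DESeq2, 6 with no filter on low counts, 89 in the fit of all 41 batch A libraries and 102 in the fit of all 69 libraries with batch. Leaving out 1 of the 13 libraries gave 0 to 48, and leaving out 1 of them from the 41-library fit gave 33 (Lean replicate 2) to 173 (Lean replicate 5). Other size factors and unrounded counts gave 12, limma-voom 14 and no robust estimation 17. With the replicate number as a block over the 6 shared numbers it was 3, of which 2 were among the 12. No source used here says what a shared number means. Deviations of same-numbered pairs correlated at 0.016 to 0.46, above 0.1 in 3 of 6, and 4 of 6 correlated best with their own number, a hint from the data of something shared. As not every pair was above 0.1, the block was not made the main analysis. Lean against saline fell from 105 to between 20 and 63 without 1 saline library, and sham against saline gave 3, or between 0 and 3. The median log2 fold change stayed between 0.963 and 1.26 for fatty acid synthesis and between 0.599 and 0.905 for cholesterol synthesis over 22 alternatives, both lowest without Lean replicate 2. Of these genes, 0 to 11 and 0 to 9 were called. Of 2178 values of the 99 checked genes under an alternative, 124 lost a call, 115 gained one and 0 called values changed sign. The sign turned in at least 1 alternative for 6 uncalled genes, among them Cpt1a, Cidec and Hamp. The causes were not tested. At this depth, genes near 1 CPM such as Adam22 rest on few reads.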

Other observations

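Several other gene groups had medians near 0 in Lean against sham livers. The 80 tested rows of cytosolic ribosomal proteins had a median log2 fold change of 0.0383, and 60 respiratory chain subunits one of 0.0397, with 0 called in either list. Interferon-stimulated genes (31 tested) and complement and coagulation genes (44 tested rows) had medians of −0.00824 and 0.0141. Some lists lay farther from 0, with 0 called in each. Of 14 heat shock genes 12 lay below 0 (median −0.279), among them Hsp90aa1 with a log2 fold change of −0.69 (adjusted p = 0.462, edgeR). Of 32 extracellular matrix genes 25 lay above 0 (median 0.308). At an unadjusted p under 0.05, 1 heat shock gene was higher and 3 lower, and 5 matrix genes were higher and 1 lower. Over all genes the shares were 6.24% and 3.96%. Of 20 circadian clock genes 13 lay above 0 (median 0.207), and Cry2, a repressor of the clock, differed by 0.43 on the log2 scale (adjusted p = 0.466, edgeR).

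The iron hormone gene Hamp was at 556 to 1050 CPM in Lean (median 787) and at 491 to 1050 CPM in sham (median 893; log2 fold change −0.01). Igfbp2, which binds insulin-like growth factors, ranged from 0.148 to 7.18 CPM in Lean and from 0.65 to 6.58 CPM in sham (log2 fold change 0.13). Among cytokines, Il1a was at 15.8 to 31.4 CPM in Lean (median 24.1) and at 6.87 to 19.4 CPM in sham (median 11.8; log2 fold change 0.93). Its adjusted p was 0.0921 in the 13 libraries and 0.121 in the 41 (edgeR). Adh7, a retinol-oxidizing alcohol dehydrogenase, was at 10.3 to 27.1 CPM in Lean (median 12) and at 25.3 to 43.2 CPM in sham (median 31.5; log2 fold change −1.05, adjusted p = 0.0921, edgeR), and passed the test in the 41 libraries (adjusted p = 0.0319, edgeR).

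Igfn1 and Irs3, named after their values were seen, also lay apart without being called. Igfn1, an immunoglobulin-like and fibronectin domain gene, was at 15.8 to 158 CPM in Lean and at 0.42 to 8.93 CPM in sham (log2 fold change 3.97, adjusted p = 0.0664, edgeR). Irs3, an insulin receptor substrate, was at 3.09 to 11.2 CPM in Lean and at 0.697 to 3.02 CPM in sham (log2 fold change 2.19, adjusted p = 0.0816, edgeR). In both genes every Lean library lay above every sham library.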
